A study of Mus musculus with 12 samples.

Results

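The genes described here encode the mitochondrial enzymes that burn fatty acids and use ketone bodies. There were 31 of them, chosen by name from a deposited table of 43346 mouse genes, and all 31 were found in it. They cover the carnitine shuttle (4 genes), long-chain acyl-CoA synthetases (4), medium-chain acyl-CoA synthetases (4), acyl-CoA dehydrogenases (6), the enzymes of hydration, dehydrogenation and thiolysis (5), auxiliary enzymes for unsaturated fatty acids (2), the electron transfer flavoprotein and its acceptor (3) and ketone metabolism (3). Not every product is confined to the mitochondrial matrix: Acad11 also acts in peroxisomes, and the Acsl proteins sit on several membranes of the cell.

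The study compared messenger RNA of whole mouse kidney between 6 sham libraries (numbered 1 to 6) and 6 HP-AKI libraries (7, 8, 9, 11, 12 and 13), both collected on day 1. AKI is acute kidney injury; the labels do not spell out the letters HP, and the name is used here as they give it. Strain, sex and age are not given in the sources used here, and the labels do not say whether each library is its own animal, so the p-values below describe the spread between libraries, which may be technical. No transgene or added agent is labelled in either group.

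Fatty acids enter the mitochondrial matrix as acyl-carnitines. Acyl-CoA synthetases first join the acid to coenzyme A, CPT1 on the outer membrane swaps coenzyme A for carnitine, and CPT2 on the inner membrane swaps it back. Each round of beta-oxidation then uses an acyl-CoA dehydrogenase, a hydratase, a 3-hydroxyacyl-CoA dehydrogenase and a thiolase, and the electrons of the first step pass through the electron transfer flavoprotein to the respiratory chain. The proximal tubule of the kidney relies on this route for most of its energy. It also takes up ketone bodies, which are turned back into acetyl-CoA by BDH1, OXCT1 and ACAT1.

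Promoter sequences were looked up because most of these genes fell together, and 26 of the 31 matched the RefSeq promoter table of GRCm38.p6, with 29 windows of 250 bases before and 50 bases after a start site. Both strands were searched. AGGTCA repeated after 1 base, the direct repeat bound by PPAR receptors, was in 0 of the 29 windows without a mismatch and in 0 with at most 1 mismatch, against 0.0396% and 0.554% of all 32851 windows. TCAAGGTCA, which contains AGGTCA and is bound by estrogen-related receptors, was also in 0, against 0.423% of all windows. TGATGNAAT, the C/EBP-ATF element, was in 1 window, that of Echs1, against 0.965% of all windows. At shares this low, 29 windows would mostly hold no match, so these counts show neither a lack nor an excess of the elements. They are descriptions of letters in short windows and say nothing of binding elsewhere. Shown here are the Echs1 window, for its match (capitals mark the element), and the stretch between Hadha and Hadhb. Those 2 genes encode the subunits of 1 enzyme complex and lie head to head, so the stretch precedes both. Each was cut to the bases outside the deposited spans of the 31 genes, and spans of other genes were not checked. The Echs1 stretch is chr7:140116477-140116671 on the minus strand (195 bases), and the other is chr5:30155163-30155247 on the plus strand, that of Hadhb (85 bases).
Echs1: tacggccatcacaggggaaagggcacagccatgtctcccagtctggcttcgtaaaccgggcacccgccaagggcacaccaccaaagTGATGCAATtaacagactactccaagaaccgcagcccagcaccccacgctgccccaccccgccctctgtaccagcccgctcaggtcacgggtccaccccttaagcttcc
Hadhb: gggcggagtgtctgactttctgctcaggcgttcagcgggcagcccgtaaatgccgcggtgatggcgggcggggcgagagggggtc

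Library totals ran from 35201197 to 41951129 counts in sham and from 31624522 to 40630917 in HP-AKI. The kidney label fits the markers found: summed levels of the 7 early proximal tubule markers were 9058 to 10560 CPM, counts scaled to the size of the library, in sham and 1618 to 2623 CPM in HP-AKI, with 7 of 7 lower, and 6 of 6 late proximal tubule markers were lower. In bulk tissue, fewer proximal tubule cells and less RNA per cell cannot be told apart. Of markers of other cells, 4 of 6 were lower and 1 higher for the loop of Henle and distal tubule, 4 of 7 lower for the collecting duct, 4 of 5 higher and 1 lower for podocytes, 5 of 6 higher for endothelium, and 3 of 5 higher for fibroblasts and pericytes. For monocytes and macrophages 2 of 7 were higher and 5 lower, for neutrophils 4 of 6 higher with 2 too rare to test, for lymphocytes 5 of 8 lower, and for red blood cells 0 of 5 were called either way (edgeR; 0 had an unadjusted p under 0.05, the values running from 0.203 to 0.416, and DESeq2 also called 0). Over all genes tested, 35.2% were called lower and 37.7% higher. The part of these cells in the results on the 31 genes was not tested.

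Some libraries stood apart. Across the 31 genes, the deviation of a library from its group's median went with the GC content of the gene's longest annotated transcript at a Spearman's rho of -0.79 in sham 1, -0.85 in sham 2, -0.80 in HP-AKI 8 and -0.73 in HP-AKI 9, and at 0.74 in HP-AKI 13 and 0.71 in sham 4 (31 genes that share a library, no test). The most GC-rich transcripts, those of Acads (59.7%) and Etfb (57.1%), were lowest in sham 1 and 2 within sham and in HP-AKI 8 within HP-AKI. In the libraries not named above, rho ran from -0.02 in sham 3 to 0.54 in sham 6. The part of GC content in single values was not tested. Without sham 1, sham 2 and HP-AKI 8 the same numbers of the 31 genes, 28 lower and 2 higher, passed the test. That fit kept HP-AKI 9, HP-AKI 13 and sham 4, and the relation was not computed again for the libraries kept. HP-AKI 12 held the highest HP-AKI value in 19 of the 31 genes and is described after the comparison.

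HP-AKI was compared with sham to find which of these enzymes differed in transcript level on day 1. Of the 31 genes, 28 fell, 2 rose (Acsl4 and Acsl5) and 1, Cpt1a, did not pass (edgeR quasi-likelihood F-test, Benjamini-Hochberg adjusted p under 0.05 over 17470 genes). Over all genes tested, 72.8% were called, 35.2% lower and 37.7% higher, so a call alone is common here. The median log2 fold change was -1.13 for the 31 genes and 0.04 for all genes tested. Falls of at least 2-fold were called in 19 of 31 genes, against 17.1% of all genes tested. All 6 HP-AKI values lay below all 6 sham values in 21 of the 31 (25.8% of all genes tested) and above them in 1, Acsl4 (26.7%). Together the 31 genes took 1.84% to 2.03% of all counts in the sham libraries and 0.732% to 0.912% in the HP-AKI libraries.

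**Figure D1:**
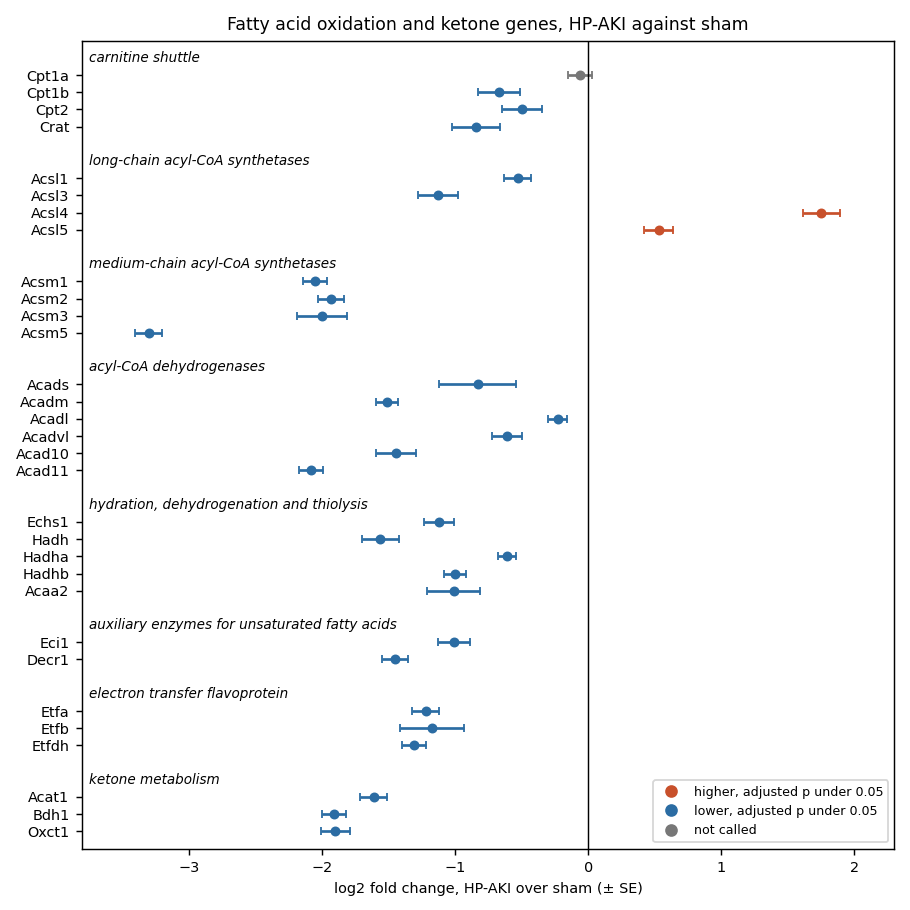
Log2 fold change of each of the 31 genes, HP-AKI over sham, with SE (n = 6 libraries per group), ordered by role; colour gives the call at an adjusted p of 0.05. The falls run from -0.23 for Acadl to -3.30 for Acsm5, Acsl4 and Acsl5 lie above 0, and Cpt1a lies near 0.

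**Figure D2:**
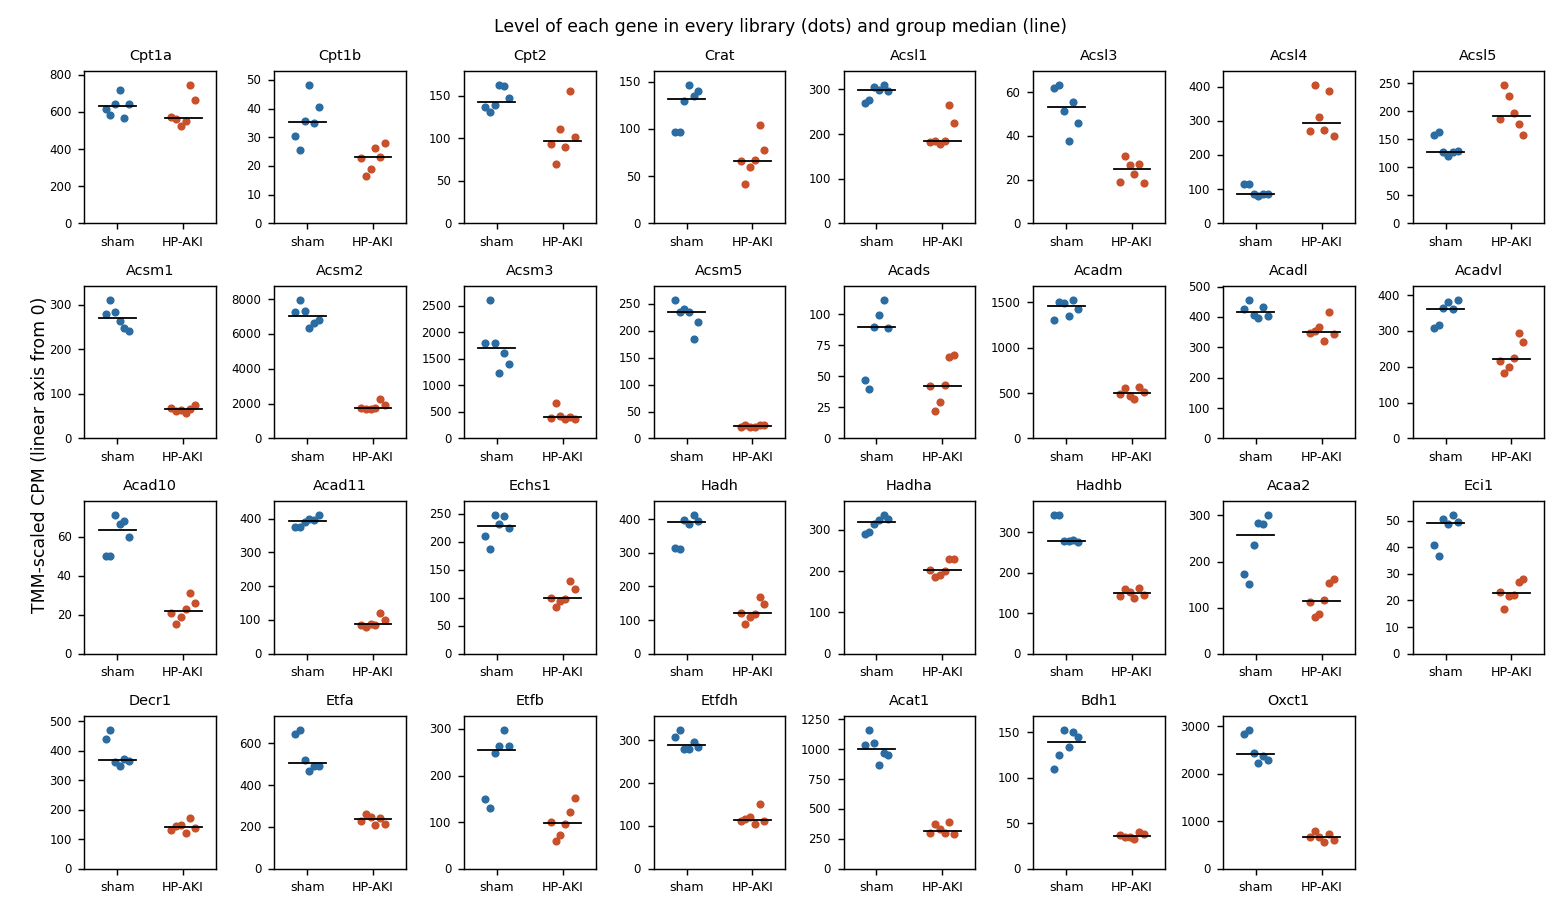
Level of each gene in CPM scaled with TMM factors (linear axis from 0), 1 dot per library and a line at the group median. In 21 panels the HP-AKI dots all lie below the sham dots, and in the Acsl4 panel all lie above.

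On the scale of CPM per kilobase of gene, which allows genes to be compared, the highest mean level in sham was that of Acsm2 at 932, followed by Oxct1 at 679, Acadm at 489 and Acsm3 at 354. The lowest were Acad10 at 10.1 and Cpt1b at 10.7. In HP-AKI, Acsm2 was at 244, Oxct1 at 181, Acadl at 179, Acadm at 172 and Cpt1a at 140. Acadl and Cpt1a thus stood among the 5 highest in HP-AKI but not in sham, where Etfa held the fifth place. These levels depend on the deposited gene lengths, such as 7565 bases for Acsm2.

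In the carnitine shuttle, 3 of 4 genes fell, and in each of the 4 the groups overlapped. Cpt1a, the outer-membrane step that limits the rate of entry, had 569 CPM in its lowest, 629 in its median and 718 in its highest sham library, and 525, 566 and 748 CPM in HP-AKI. The HP-AKI range thus enclosed the sham range, and the log2 fold change was -0.06 ± 0.09 (SE, n = 6 per group, edgeR adjusted p 0.592). The top of the HP-AKI range was HP-AKI 12, and the other 5 libraries lay at 525 to 664 CPM. With library size as the only scaling, which moves the median of all genes to 0.16, Cpt1a was at 0.06. Over the 20 alternatives its log2 fold change ran from -0.15 to 0.06, and it passed in 0 of them. Cpt2, which regenerates acyl-CoA in the matrix, had 130, 143 and 163 CPM in sham (lowest, median, highest) and 69.6, 97.0 and 156 CPM in HP-AKI. Its fall of -0.50 ± 0.15 (adjusted p 0.0068) became -0.67 without HP-AKI 12, the library with the highest HP-AKI value. Crat, which exchanges acetyl groups between coenzyme A and carnitine, fell by 0.84 on the log2 scale (adjusted p 5.73e-04).

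Cpt1b, the muscle form of CPT1, ran from 25.5 to 48.4 CPM in sham (median 35.3) and from 16.5 to 28.1 CPM in HP-AKI (median 23.0), a log2 fold change of -0.67 ± 0.16 (adjusted p 0.00117). On the per-kilobase scale Cpt1a made up 92.1% to 94.7% of the summed CPT1 level in sham and 94.3% to 96.4% in HP-AKI, so the liver form accounted for nearly all of it in every library. Skeletal muscle and brown fat also express Cpt1b. The 6 muscle markers summed to 0.758 to 1.65 CPM in sham and 0.711 to 1.13 CPM in HP-AKI; 5 of the 6 were too rare to test, among them Ckm with a median of 0 in both groups, and the other, Mylpf, was lower. Of the 8 fat markers 3 were higher (Fabp4, Cidec and Lep) and 5 were not called, and their sum of 76.2 to 138 CPM in sham and 159 to 383 CPM in HP-AKI was mostly Fabp4, which endothelium also expresses. Ucp1, the brown fat marker, ran from 0.182 to 9.62 CPM in sham and from 0.234 to 28.2 CPM in HP-AKI, and Adipoq from 0 to 3.94 CPM and from 0.146 to 2.45 CPM. The part of fat and muscle in the Cpt1b values was not tested. Most of the Cpt1b exons (81.4% of their bases) also belong to a same-strand readthrough gene of GENCODE that the table does not list, so some of its reads may come from that transcript.

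The long-chain synthetases split: Acsl1 and Acsl3 fell, Acsl4 and Acsl5 rose. Acsl4 prefers arachidonic and other polyunsaturated acids, which it channels into phospholipids, and it is best known for setting the sensitivity of cells to ferroptosis. Its sham libraries held 79.6, 85.7 and 114.5 CPM (lowest, median, highest) and its HP-AKI libraries 255, 293 and 406 CPM. The groups lay far apart, at 3.37 times the sham mean, and the log2 fold change was 1.75 ± 0.14 (edgeR adjusted p 2.24e-08). Endothelial markers (5 of 6 higher, summed level 475 to 537 CPM in sham and 597 to 910 CPM in HP-AKI) and neutrophil markers (4 of 6 higher, 1.83 to 3.49 and 17.6 to 143 CPM) moved in the same direction. The 5 markers of the adrenal cortex, another tissue rich in Acsl4, also summed higher in HP-AKI (4.92 to 7.89 CPM) than in sham (1.38 to 2.22 CPM). Nearly all of that sum was Star, the 1 marker of the 5 that could be tested, which rose (1.83 ± 0.15, adjusted p 3.35e-08), while Cyp11b1 and Cyp11b2 had no count in any HP-AKI library. The part of these cells in the rise of Acsl4 was not tested.

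Acsl5, an outer-membrane and endoplasmic reticulum synthetase linked to triglyceride synthesis, rose from a sham range of 121 to 163 CPM to 158 to 247 CPM, with overlapping groups (0.53 ± 0.11, adjusted p 6.34e-04). Acsl1, the main synthetase feeding CPT1, fell from 271 to 311 CPM in sham to 177 to 264 CPM in HP-AKI, without overlap (-0.53 ± 0.10, adjusted p 1.83e-04). Acsl3, a synthetase of the endoplasmic reticulum and lipid droplets, fell by 1.13 on the log2 scale. Within the family, the share of Acsl4 in the summed per-kilobase level was 15.6% to 18.5% in sham and 36.8% to 44.1% in HP-AKI. Acsl1 went from 25.1% to 33.9% in sham to 10.8% to 18.9% in HP-AKI, and Acsl3 from 9.32% to 12.5% to 3.32% to 3.94%. The share of Acsl5 was 39.6% to 44.3% in sham and 34.8% to 46.6% in HP-AKI. Because Acsl4 and Acsl5 rose, the summed level of the 4 genes was 93.5 to 117 CPM per kilobase in sham and 126 to 180 in HP-AKI, so this was the role group whose total stood higher after injury.

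**Figure D3:**
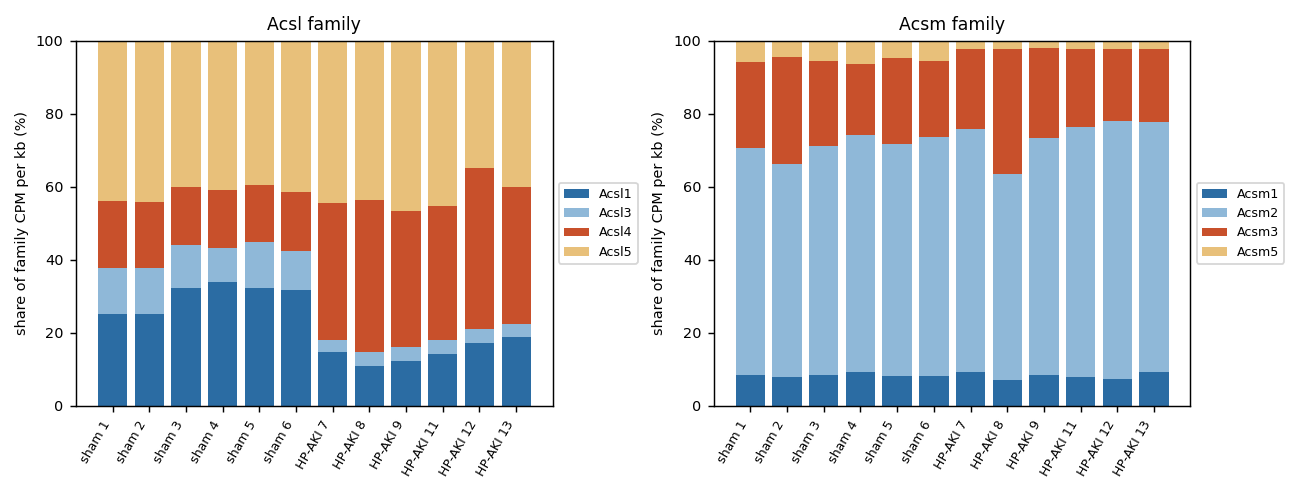
Share of each gene in its family's summed level per kilobase, as stacked bars for every library, for the long-chain (Acsl) and medium-chain (Acsm) synthetases. The Acsl4 band covers 15.6% to 18.5% in sham and 36.8% to 44.1% in HP-AKI, while in the Acsm family the means differ by -3.18 points for Acsm5 and 3.07 points for Acsm2.

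The medium-chain synthetases fell most as a group: 4 of 4 fell, none with overlapping groups, and the smallest of the 4 changes was -1.93. ACSM enzymes activate medium-chain fatty acids and also benzoate and other xenobiotic acids for conjugation with glycine, and they lie side by side on chromosome 7. Acsm5 had 184, 235 and 258 CPM in sham and 20.5, 23.3 and 25.6 CPM in HP-AKI (lowest, median, highest). That is a 9.83-fold lower mean, the largest fall of the 31 genes (-3.30 ± 0.10, adjusted p 1.22e-12). Acsm2, the most abundant of them, went from 6327, 7037 and 7968 CPM to 1695, 1754 and 2240 CPM (-1.93 ± 0.10, adjusted p 1.39e-10). Acsm1 fell by 2.05 on the log2 scale. Acsm3 fell by 2.0, with libraries that differed more (1238 to 2617 CPM in sham, 360 to 676 CPM in HP-AKI). Sham 2 and HP-AKI 8, both low on the GC relation above, were its highest libraries, and 39.7% of the Acsm3 exon bases overlap Eri2 on the opposite strand, which a kit without strand information cannot separate. The share of Acsm5 in its family went from 4.51% to 6.32% in sham to 2.06% to 2.36% in HP-AKI. Acsm1, Acsm2 and Acsm3 had overlapping shares. How reads shared between these related genes were counted is not given in the sources used here.

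All 6 acyl-CoA dehydrogenases fell, by very different amounts. Acad11, which handles very long and hydroxylated chains, went from 374, 394 and 412 CPM in sham to 80.3, 86.5 and 119 CPM in HP-AKI (-2.08 ± 0.09, adjusted p 4.86e-11). Acadm, the medium-chain dehydrogenase MCAD, went from 1300, 1462 and 1529 CPM to 440, 496 and 571 CPM (-1.51 ± 0.08, adjusted p 4.63e-10). In both genes the highest injured library lay far under the lowest sham library. Acad10, a less studied member of the family, fell by 1.44.

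The other 3 dehydrogenases fell by less than 1 on the log2 scale. Acadvl, the very-long-chain enzyme VLCAD, went from 309 to 387 CPM in sham to 182 to 294 CPM in HP-AKI (-0.61 ± 0.11, adjusted p 1.75e-04), and 42.9% of its exon bases overlap Dvl2 on the other strand. Acadl, the long-chain enzyme LCAD, had 395, 416 and 457 CPM in sham and 321, 350 and 416 CPM in HP-AKI, with overlapping groups. Its fall of -0.23 ± 0.07 (adjusted p 0.0111) was the smallest of the 28 and ended with library size as the only scaling (-0.11, adjusted p 0.139). Over the 20 alternatives its adjusted p ran from 9.91e-04 to 0.139. Acads, the short-chain enzyme SCAD, spread widely within both groups, from 39.6 to 112 CPM in sham and from 22.1 to 67.0 CPM in HP-AKI (-0.83 ± 0.29, adjusted p 0.0184). Its 2 lowest sham libraries were sham 1 and sham 2, and without these and HP-AKI 8 its log2 fold change was -1.03.

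Each of the 5 later enzymes of the cycle fell. Hadh, the dehydrogenase of short and medium chains, went from 311, 390 and 413 CPM in sham to 89.1, 120 and 168 CPM in HP-AKI (-1.56 ± 0.14, adjusted p 7.59e-08). Echs1, the short-chain hydratase, went from 187, 228 and 248 CPM to 83.0, 98.7 and 130 CPM (-1.12 ± 0.11, adjusted p 1.87e-07). Hadha and Hadhb encode the alpha and beta subunits of the trifunctional protein, which runs the last 3 steps for long chains. Hadha fell from 291 to 337 CPM to 185 to 230 CPM (-0.61 ± 0.07), and Hadhb from 275 to 343 CPM to 138 to 162 CPM (-1.0 ± 0.08). These 2 neighbours, which share the stretch printed above, both fell without overlap, but the difference between their fold changes was not tested. Sham 1 and sham 2 were the 2 highest sham libraries for Hadhb and the 2 lowest for Hadha, whose longest transcripts have 39.1% and 51.3% GC. Acaa2, the medium-chain thiolase, fell by 1.01 with overlapping groups.

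Both auxiliary enzymes fell. Decr1, the dienoyl-CoA reductase needed for polyunsaturated acids, went from 347 to 470 CPM in sham to 121 to 173 CPM in HP-AKI (-1.45 ± 0.10, adjusted p 5.22e-09). Eci1, the enoyl-CoA isomerase, went from 36.9 to 52.2 CPM to 16.8 to 28.1 CPM (-1.01 ± 0.12, adjusted p 2.96e-06). In neither gene did the groups overlap.

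The 3 genes of electron transfer fell by similar amounts. Etfdh, the inner-membrane oxidoreductase that passes the electrons on to ubiquinone, went from 278, 290 and 324 CPM in sham to 104, 114 and 151 CPM in HP-AKI (-1.31 ± 0.09, adjusted p 4.03e-09). Etfa, the alpha subunit of the flavoprotein, went from 469, 507 and 663 CPM to 207, 237 and 262 CPM (-1.22 ± 0.10, adjusted p 3.95e-08). Etfb, the beta subunit, fell by 1.17 ± 0.24, with overlapping groups (131 to 298 CPM in sham, 58.8 to 151 CPM in HP-AKI). Another gene, Gm45233, overlaps 53.0% of the Etfb exon bases and is not in the table, and Mir7051 also overlaps Etfb exons. Within sham its 2 lowest libraries were again sham 1 and sham 2.

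The 3 ketone enzymes fell without overlap. Oxct1, the transferase that activates acetoacetate and commits ketone bodies to oxidation, went from 2228, 2410 and 2922 CPM in sham to 567, 661 and 802 CPM in HP-AKI (-1.90 ± 0.11, adjusted p 4.44e-10). Bdh1, which interconverts beta-hydroxybutyrate and acetoacetate, went from 109, 140 and 153 CPM to 33.1, 36.0 and 39.9 CPM (-1.91 ± 0.09, adjusted p 8.12e-11). Acat1, the acetoacetyl-CoA thiolase that also serves isoleucine breakdown, went from 868, 1002 and 1160 CPM to 292, 314 and 390 CPM (-1.61 ± 0.10, adjusted p 1.40e-09). The mean level of Oxct1 was 3.74-fold lower and that of Bdh1 3.75-fold lower after injury.

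Under GRCm38 the protein-coding genes with the values most used above are Cpt1a (ENSMUSG00000024900, chromosome 19, 3323301 to 3385732), Acsl4 (ENSMUSG00000031278, chromosome X, 142317993 to 142390535), Acsm5 (ENSMUSG00000030972, chromosome 7, 119526304 to 119543793) and Acsm2 (ENSMUSG00000030945, chromosome 7, 119554469 to 119600694). Acadm (ENSMUSG00000062908) lies on chromosome 3 from 153922357 to 153944632, Hadha (ENSMUSG00000025745) and Hadhb (ENSMUSG00000059447) on chromosome 5 from 30118301 to 30155162 and from 30155248 to 30184593, and Oxct1 (ENSMUSG00000022186) on chromosome 15 from 4026383 to 4155344.

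HP-AKI 12 stood above the other HP-AKI libraries in 19 of the 31 genes, and was lowest in 0. Its median deviation from the group's median over the 31 genes was 0.31 on the log2 scale, against -0.05 to 0.14 in the other HP-AKI libraries. Cpt1a reached 748 CPM there, above all sham libraries, and Cpt2 156 CPM, within the sham range. Etfdh reached 151 CPM, with the other 5 HP-AKI libraries at 104 to 121 CPM. PPARA is the nuclear receptor that drives fatty acid oxidation genes. Of 10 of its targets outside the 31 genes, HP-AKI 12 was highest of its group in 9. How often this library was highest over all genes was not computed, so these counts have no background. Ehhadh, a peroxisomal bifunctional enzyme, had 1405 CPM in HP-AKI 12, 302 to 585 CPM in the other 5 and 1079 to 1666 CPM in sham. Cyp4a14, a fatty acid hydroxylase, had 268 CPM there, 24.5 to 60.8 CPM in the other 5 and 311 to 552 CPM in sham. Other targets lay farther from sham in HP-AKI 12. Pdk4 had 1432 CPM there, 436 to 850 CPM in the other 5 and 21.7 to 45.2 CPM in sham. Plin2 had 3802 CPM there, 1176 to 1980 CPM in the other 5 and 69.6 to 116 CPM in sham. Ppara itself had 73.8 CPM in HP-AKI 12 and 27.8 to 45.02 CPM in the other 5. Nothing in the labels sets this library apart. Without it, the counts of the 31 genes stayed at 28 lower and 2 higher.

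**Figure D4:**
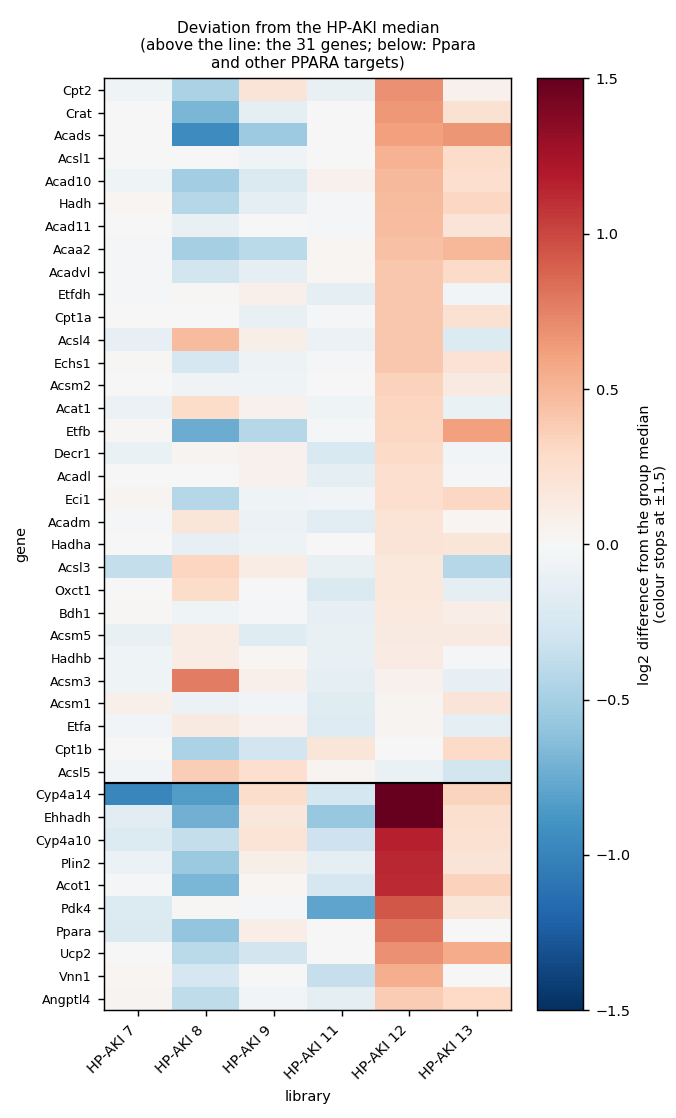
Log2 deviation of each HP-AKI library (columns) from the group's median for the 31 genes (above the line) and for Ppara and 9 PPARA targets (below it), red above and blue below the median, with the colour range ending at 1.5. The HP-AKI 12 column is red for most genes, with Ehhadh at 1405 CPM against 302 to 585 CPM in the other 5.

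The other genes of the pathway were followed in 10 lists of 86 genes, of which 85 matched the table and 82 were tested. Of these 57 fell, 18 rose and 7 did not pass, with a median log2 fold change of -1.08. Over all genes tested, 35.2% were called lower and 37.7% higher, and the counts of each list below stand against these shares. Among 9 genes of fatty acid uptake and binding, 7 fell and 1 rose. Slc27a2, a fatty acid transporter with acyl-CoA synthetase activity, went from 4552 to 5278 CPM in sham to 871 to 1433 CPM in HP-AKI (-2.18 ± 0.11, adjusted p 2.24e-10). The binding protein Fabp3 fell by 2.28, and Fabp1, barely present in sham at 0.929 to 2.16 CPM, fell by 3.03.

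Of the 6 other carnitine genes 4 fell and 0 rose. Slc22a5, the carnitine importer OCTN2, went from 319 to 372 CPM to 75.8 to 108 CPM (-1.93 ± 0.09, adjusted p 3.96e-11). Crot, the peroxisomal carnitine octanoyltransferase, fell by 1.70, and Bbox1, the last enzyme of carnitine synthesis, fell by 2.0. Slc25a20, the carrier that takes acyl-carnitines across the inner membrane between CPT1 and CPT2, had 73.9 to 90.9 CPM in sham and 73.1 to 102 CPM in HP-AKI and did not pass (-0.02 ± 0.09, adjusted p 0.837). It and Cpt1a thus both failed the test, at an SE of 0.09 each.

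Of 7 other tested acyl-CoA synthetases 5 fell and 2 rose. Acsbg1 rose from 0.244 to 0.859 CPM in sham to 7.98 to 12.8 CPM in HP-AKI (4.21 ± 0.22, adjusted p 2.65e-10). Acss3 and Acss1, mitochondrial synthetases of short acids, both fell (log2 fold changes -3.05 and -1.19). Of the 7 thioesterases, which release free acid from acyl-CoA, 3 were higher and 2 lower, near the shares over all genes tested. Acot2, the mitochondrial long-chain thioesterase, rose from 9.73 to 15.0 CPM to 42.9 to 97.4 CPM (2.43 ± 0.18, adjusted p 9.33e-09). Acot11 fell by 2.15. Acot12, with the highest mean CPM of the 7 in sham, did not pass (-0.21, adjusted p 0.314) but did without HP-AKI 12 (-0.42, adjusted p 0.00667), within a range of 0.00667 to 0.848 over 20 alternatives.

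Of 11 other genes of mitochondrial acyl-CoA oxidation 9 fell and 1 rose. Ivd and Gcdh, dehydrogenases of leucine and of lysine and tryptophan breakdown that feed the same flavoprotein, fell: Ivd fell by 1.57 and Gcdh fell by 1.70, and Acad12 fell by 2.24. The 4 genes that take propionyl-CoA from odd chains into the citric acid cycle all fell, Mut by 1.79 and Mcee by 1.72. Of 7 other tested ketone body genes 6 fell and 1 rose. The monocarboxylate transporters moved apart: Slc16a7 (MCT2) fell from 146 to 225 CPM to 22.4 to 33.5 CPM, and Slc16a1 (MCT1) rose from 26.8 to 40.4 CPM to 164 to 214 CPM (2.58 ± 0.11, adjusted p 2e-11). Bdh2, a cytosolic dehydrogenase, fell by 1.79. A further row with the same name lies within its span and was not used. That row held 9274 to 12249 counts in sham and 2821 to 3456 in HP-AKI, and the row used 10893 to 14857 and 3464 to 4137. Whether reads in overlapping genes were counted for both was not tested, which also bears on the overlapped Cpt1b, Acsm3, Acadvl and Etfb.

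Of 15 transcriptional regulators 11 fell and 3 rose. Ppara had 75.9, 90.4 and 96.0 CPM in sham and 27.8, 42 and 73.8 CPM in HP-AKI, without overlap (-0.99 ± 0.17, adjusted p 9.86e-05). Ppargc1a, the coactivator of mitochondrial genes, went from 114 to 168 CPM to 46.8 to 64.8 CPM (-1.24 ± 0.11, adjusted p 7.81e-08). Hnf4a, which maintains proximal tubule genes, went from 724 to 847 CPM to 124 to 228 CPM (-2.36 ± 0.13, adjusted p 4.52e-10), and Sirt3, the mitochondrial deacetylase, fell by 1.73. Of 7 genes of malonyl-CoA control 4 fell and 3 rose. Among subunits of the AMP-activated kinase, which relieves the block of CPT1 by malonyl-CoA, the catalytic Prkaa2 fell by 1.28, while the other catalytic subunit, Prkaa1, rose by 0.66 and the regulatory Prkab1 and Prkab2 rose by 1.24 and 1.61.

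The 9 tested PPARA targets outside the 31 genes split into 5 lower and 4 higher. Pdk4, the kinase that shuts off pyruvate dehydrogenase, had 21.7, 38.2 and 45.2 CPM in sham and 436, 753 and 1432 CPM in HP-AKI (4.52 ± 0.27, adjusted p 1e-09). Plin2, the coat protein of lipid droplets, had 69.6, 98.8 and 116 CPM in sham and 1176, 1735 and 3802 CPM in HP-AKI (4.42 ± 0.27, adjusted p 9.86e-10). Over all genes tested, 35.2% were called lower and 37.7% higher, so calls in either direction are common here.

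**Figure D5:**
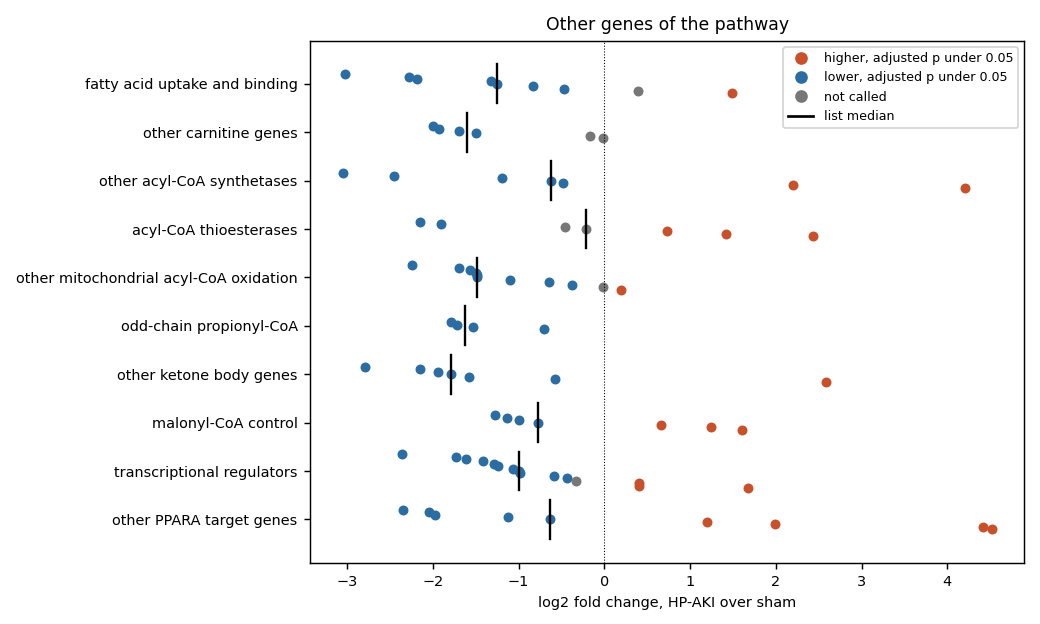
Log2 fold change, HP-AKI over sham, of each tested gene (dots, coloured by the call at an adjusted p of 0.05) in 10 lists of other pathway genes, with a line at each list's median. Most dots lie below 0; Pdk4 (4.52), Plin2 (4.42) and Acsbg1 (4.21) lie farthest to the right.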

How the data were processed

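The deposited table holds, per gene, raw counts and RPKM values made by the authors for 12 libraries and a gene length. Tools listed, with no role, in the submitters' processing notes are featureCounts, edgeR and TopHat2 2.1.0, and the build is GRCm38; strand, filters and RPKM scaling are not given in the sources used here. The deposited RPKM values were not used. The library kit, per the labels' protocols, was TruSeq RNA v2.

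Counts were filtered with filterByExpr, scaled with TMM and tested with edgeR 4.0.16 (quasi-likelihood F-test, two-sided, R 4.3.3), with Benjamini-Hochberg adjustment over 17470 genes. The SE is the log2 fold change divided by the square root of F. CPM values use TMM-scaled library sizes. Alternatives, 20 in all, used DESeq2 1.42.0, limma 3.58.1 (voom), other scalings and filters, and left out libraries. Shares within families and deviations of libraries were not tested. No 2 libraries of a group agreed within sampling noise. GC content and exon overlaps came from GENCODE vM21 (GRCm38), promoters from RefSeq (GRCm38.p6).

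All 31 genes are named. The pathway lists name Slc25a20, Ppara and Ppargc1a, and from each list the 2 largest called changes and the highest mean CPM; 2 genes this rule names are not reported here. Adgre1 was matched by identifier and Tmlhe was not analysed here. Members and lists were chosen with earlier results of these data known, and Cyp4a14, Ehhadh, Prkaa1, Prkab1 and the markers named were named after their values were seen.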

Additional observations from a re-analysis of the deposited data

Results flagged for a closer look

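In 120 combinations of a gene and a group, 7 values lay far from the others of their group by Dixon's test. Chance gives about 1 in 20 where checks are independent. These checks share libraries, and most of the 7 values lay in HP-AKI 12, so the total cannot be judged by that rate. In HP-AKI 12, Etfdh had 151 CPM (next 121), Ppara 73.8 CPM (next 45.02), Hnf4a 228 CPM (next 158) and Plin2 3802 CPM (next 1980), each above the rest, and Ppargc1a had 46.8 CPM (next 58.8), below the rest. Acsm3 had 676 CPM in HP-AKI 8 (next 419). Mcee had 61.6 CPM in sham 2 (next 69.8).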

How the results depend on the processing

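Over 20 alternatives the number of the 31 genes called lower was 27 or 28 and the number called higher 2, and of the pathway genes 54 to 59 were lower and 16 to 19 higher. No called change of the 31 genes or of a named pathway gene turned its direction. Of the calls among them, 1 ended in 1 alternative, that of Acadl with library size only (-0.11), and Acot12 passed without HP-AKI 12 (-0.42). Values near 0 turned their sign: Cpt1a with library size only (0.06) and Slc25a20 with library size only (0.09) and without sham 4 (0.00). Shares taken from counts, not per length, changed between groups by -23.45 percentage points for Acsl1 (-15.43 per length), -5.85 for Acsl3 (-7.84), 26.17 for Acsl4 (22.58) and -1.49 for Acsm5 (-3.18). Acsl5 differed by 3.13 points from counts (0.69 per length), Acsm2 by 1.76 (3.07) and Acsm3 by -0.13 (0.33), moves smaller than the spread between libraries. No paired analysis was possible because the groups share no sample numbers. No batch is labelled, so none could be modelled. At 6 libraries per group, differences of the size of those of Cpt1a and Slc25a20 were within the SE.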
